A study of Mus musculus with 4 samples.

Results

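Plasmacytoid dendritic cells (pDCs) of the mouse liver were described from 4 single-cell RNA-seq libraries of non-parenchymal liver cells. A cell was taken as a pDC when it held at least 2 UMIs (unique molecular identifiers, each standing for 1 captured transcript) of Siglech and at least 1 UMI of Bst2, Tcf4 and Ccr9 together. It also had no UMI of the B cell gene Cd79a or the T cell gene Cd3e, fewer than 5 UMIs of the macrophage genes C1qa, C1qb and C1qc, and fewer than 10 UMIs of the neutrophil genes S100a8 and S100a9. In all, 1748 of the 82905 cells kept (at least 500 UMIs and 300 genes, and at most 15% mitochondrial UMIs) met this rule. These genes chose the cells, so their levels are given as a description only.

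Every library came from male C57BL/6J mice that were 8 weeks old by the labels. MASH mice (metabolic dysfunction-associated steatohepatitis) received FAT (Fibrosis and Tumor), a regimen with a Western diet rich in fat, sucrose and cholesterol, drinking water with fructose and glucose, and an intraperitoneal low dose of CCl4, a liver toxin, once a week. The other mice ate regular chow. There was 1 MASH and 1 chow library at 12 weeks, and 1 of each at 24 weeks, so no comparison of diets has a replicate and no p-value is given. Every liver spent the night on ice before collagenase IV and DNase I digestion, Percoll enrichment and red cell lysis, and 5′ libraries were then made. Shares therefore refer to this suspension rather than to the tissue. The labels do not give the number of animals in a library. The 12-week MASH counts were made with Cell Ranger 4 and those of the other libraries with Cell Ranger 5.0.1. The 12-week MASH matrix also held columns from 0 UMIs up, where the other matrices began at 500 UMIs. At 12 weeks these differences and diet cannot be told apart. The series was made around uPAR, the urokinase receptor encoded by Plaur. Intervals below are 95% intervals that cover counting error only, so an interval that leaves out 1 describes a difference between 2 libraries and not, beyond that, between diets.

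Plasmacytoid dendritic cells are bone marrow-derived cells of the dendritic lineage that sense nucleic acids through endosomal Toll-like receptors and can secrete large amounts of type I interferon. Their development depends on the E protein TCF4 and on IRF8, and in the mouse they are recognised by the surface receptors Siglec-H, BST2 and CCR9. Conventional dendritic cells of type 1 (cDC1) and type 2 (cDC2) specialise instead in presenting antigen to T cells.

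pDCs made up a larger share of the kept cells in the MASH library than in the chow library at both weeks. At 12 weeks, 559 of 17225 MASH cells were pDCs, 3.25% (2.99 to 3.52%), against 389 of 18436 chow cells, 2.11% (1.91 to 2.33%), with exact Clopper-Pearson intervals. At 24 weeks, 380 of 19953 MASH cells were pDCs, 1.90% (1.72 to 2.10%), against 420 of 27291 chow cells, 1.54% (1.40 to 1.69%). As MASH over chow, the 12-week ratio was 1.54 (1.35 to 1.76) and the 24-week ratio 1.24 (1.07 to 1.43). MASH cells were also read more deeply, and the rule needs a fixed number of UMIs. With every cell thinned to 1000 UMIs and at least 1 UMI of Siglech required, the shares were 3.74% in MASH and 2.74% in chow at 12 weeks, and 2.12% in MASH and 2.04% in chow at 24 weeks. The 24-week ratio was then 1.04. Split by the hashtag antibody a cell carried, a label whose meaning is not given, the 12-week shares were 2.85 to 3.72% over 3 MASH hashtags against 2.24 to 2.53% over 3 chow hashtags, and did not overlap. At 24 weeks they were 1.67 to 2.37% over 8 MASH hashtags, with a median of 2.12%, against 1.19 to 2.46% over 8 chow hashtags, with a median of 1.89%, and overlapped. The 24-week chow shares were split within the library, at 1.19 to 1.84% for hashtags 1 to 4 and 1.95 to 2.46% for hashtags 5 to 8. With the chow cells of hashtags 5 to 8 alone the 24-week share ratio turned to 0.832.

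pDCs held more transcripts than the average kept cell of their library. Their median was 5768 UMIs in MASH and 4218 UMIs in chow at 12 weeks, and 6824.5 UMIs in MASH and 4770 UMIs in chow at 24 weeks, where all kept cells had medians of 2096 to 3464 UMIs. The summed pDC counts were 3509568 UMIs in MASH and 1725887 UMIs in chow at 12 weeks, and 2898029 UMIs in MASH and 2139439 UMIs in chow at 24 weeks. All levels below are CPM, the UMIs of a gene scaled by these sums, and so are shares of the pDC transcripts. Scrublet scored 8.68 to 21.0% of the pDCs of a library as doublets, and 13.8 to 28.3% carried several hashtags. These cells were kept, and results that move without them are named below. No pDC barcode was shared among the 3 libraries whose barcodes can be compared, although those libraries shared 487 to 732 barcodes of kept cells by pair. In the 12-week MASH library the deposited barcode list did not match the matrix, so shared cells could not be counted there.

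Few cells lay near the Siglech edge of the rule. Siglech reached at least 5 UMIs in 86.6 to 92.9% of the pDCs of a library, and only 11 to 29 of them held exactly 2. Cells with exactly 1 UMI of Siglech that met the rest of the rule numbered 42 to 75 per library. Cox6a2, a muscle-type subunit of cytochrome c oxidase that pDCs also express, stood at 34.7 to 216 CPM in those cells just outside, at 0 to 680.4 CPM in the cells with exactly 2 UMIs, and at 1437 to 1674 CPM in all pDCs. The excluding genes left out more cells. At 12 weeks 830 MASH and 549 chow cells held at least 2 UMIs of Siglech, and 559 and 389 were pDCs. At 24 weeks 556 MASH and 795 chow cells did, and 380 and 420 were pDCs. Of these 24-week cells, 110 in MASH and 265 in chow held Cd79a, and 64 and 171 held Cd3e. The part of these exclusions in the share ratios was not tested.

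The pDCs were set apart in all 4 libraries by a common list of genes. By the smallest log2 ratio to all other kept cells over the libraries, the 15 leading genes included Siglech, Klk1, Cox6a2, Gm21762, Cd300c, Atp2a1, Sh3bgr, Klk1b27, Eldr, Smim5, Cd209d, Pgam2, Pdzd4 and Klra17. Siglech, the sialic acid-binding receptor of mouse pDCs, ranged over 1984 to 2328 CPM in pDCs and 29.6 to 49.6 CPM in all other kept cells. Klk1, a tissue kallikrein protease, had 1151 to 1546 CPM against 18.7 to 32.3 CPM. Cd300c, an immunoglobulin-like receptor, had 402 to 577 CPM against 7.32 to 14.9 CPM. The list also held genes better known from muscle, among them Atp2a1, a sarcoplasmic calcium pump, and Pgam2, the muscle phosphoglycerate mutase. Klk1 and Klk1b27, and likewise Cd209a and Cd209d, belong to families of close copies whose reads the counting may split. Cd209d was also present in cDC2, at 40.3 to 140 CPM, against 315 to 570 CPM in pDCs and 6.33 to 17.2 CPM in all other kept cells. Cells were chosen on Siglech counts, so the order is a description.

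Markers outside the rule followed the label. Irf8, the transcription factor of pDCs and cDC1, had 2638 to 3213 CPM in pDCs, 1306 to 1999.9 CPM in cDC1, 65.3 to 271 CPM in cDC2 and 304 to 351 CPM in B cells. Runx2, a factor for the egress of pDCs from bone marrow, had 511 to 553 CPM in pDCs and 22.0 to 29.6 CPM in all other kept cells. Ly6d, a surface antigen of lymphoid progenitors, did not set pDCs apart from B cells, at 2442 to 3981 CPM in pDCs and 1898 to 3068 CPM in B cells. Tlr7 and Tlr9, the endosomal receptors for single-stranded RNA and unmethylated CpG DNA, stood at 97.3 to 118 and 31.6 to 49.0 CPM in pDCs. Tlr9 stood at 4.58 to 9.14 CPM in all other kept cells, but cDC1, cDC2 and B cells lay closer to pDCs. By library, the pDC level of Tlr9 was 1.55 to 5.83 times that of cDC1 and 1.80 to 2.52 times that of cDC2. It was 3.08 to 3.85 times that of B cells. The comparison populations were gated on raw UMIs and held 478 cDC1, 494 cDC2 and 20580 B cells.

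**Figure D1:**
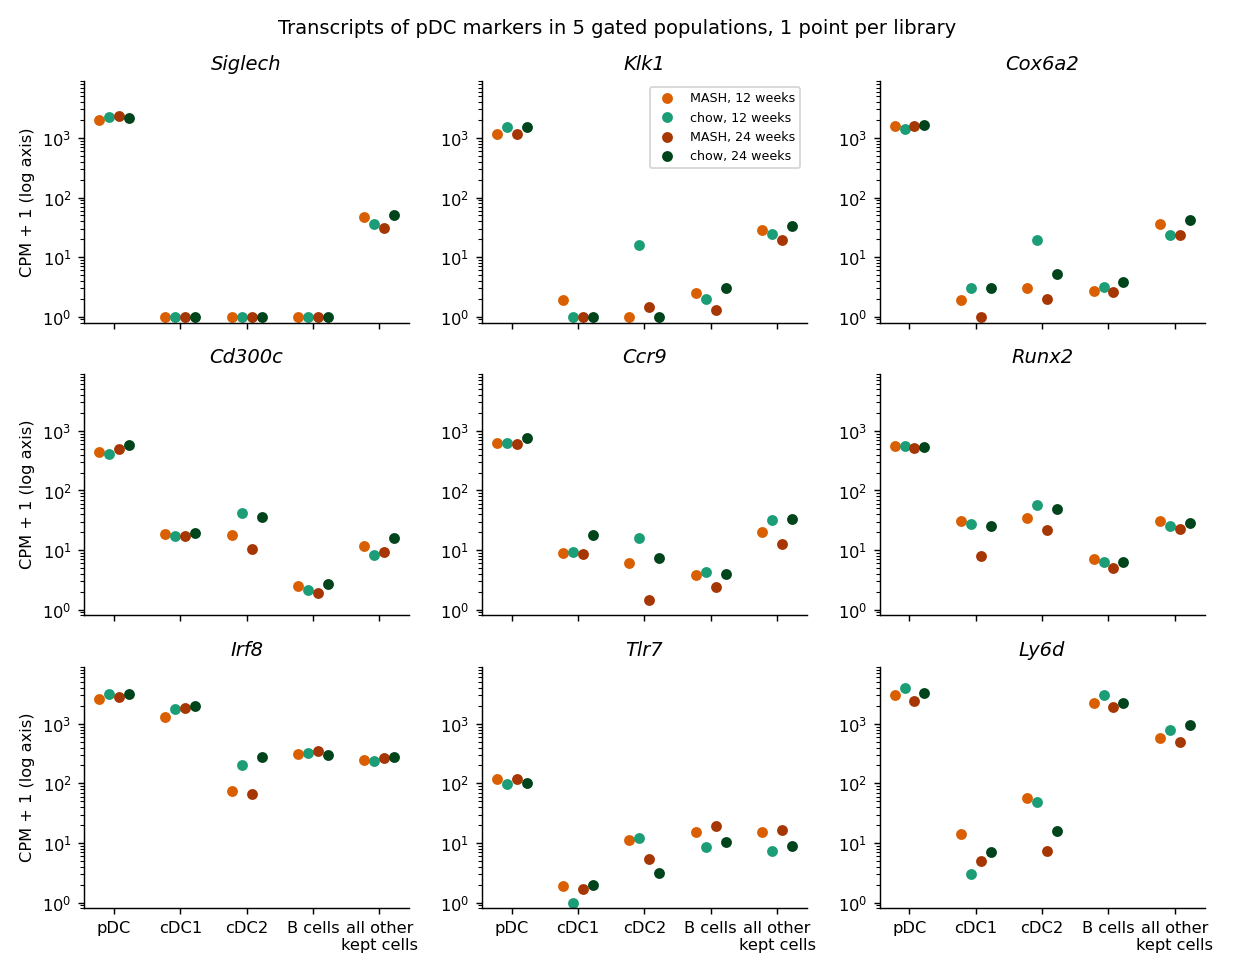
Level of 9 genes in pDCs and 4 other populations, as CPM plus 1 on a log axis, with 1 point per library and colours for diet and week. Cox6a2 sat at 1437 to 1674 CPM in pDCs and at 1.64 to 2.79 CPM in B cells, while Irf8 was also high in cDC1 and Ly6d in B cells. Siglech is 0 by rule in cDC1, cDC2 and B cells.

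Transcripts of other cell types were present in the pDCs at unequal levels. Summed over each marker list, B cell markers stood at 55.2 to 91.0 CPM in pDCs against 1402 to 2655 CPM in other kept cells, and T cell markers at 25.2 to 54.5 CPM against 874 to 1606 CPM, with Cd79a and Cd3e at 0 by rule. Neutrophil markers stood at 10.4 to 32.4 CPM in pDCs and Kupffer cell markers at 0 to 6.84 CPM. Monocyte and macrophage markers reached 629 to 1089.7 CPM and cDC2 markers 705 to 859 CPM. Erythroid markers stood at 2481 CPM in MASH and 2019 CPM in chow pDCs at 12 weeks, and 1835 CPM in MASH and 28.5 CPM in chow pDCs at 24 weeks. Cholangiocyte markers, in the same order, stood at 156, 26.1, 549 and 43.0 CPM, and hepatocyte markers at 206, 141, 169.8 and 469 CPM. Cholangiocyte markers were thus higher in MASH pDCs at both weeks, while hepatocyte markers were higher in MASH pDCs at 12 weeks and lower in MASH pDCs at 24 weeks. The part of such transcripts in the ratios below was not tested, beyond leaving out cells and genes as stated.

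The promoter of Siglech is shown because it is the gene that defines the cells, and because TCF4 binds E-box motifs. The 250 bases before its start (RefSeq, GRCm38.p6, chr7:55767934-55768183, plus strand) hold 1 CACCTG motif, in capitals, which begins 20 bases before the start:

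Siglech: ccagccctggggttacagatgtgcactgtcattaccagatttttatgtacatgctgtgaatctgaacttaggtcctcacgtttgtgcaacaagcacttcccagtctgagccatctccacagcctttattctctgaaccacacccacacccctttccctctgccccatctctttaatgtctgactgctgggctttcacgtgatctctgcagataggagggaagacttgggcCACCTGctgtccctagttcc

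CACCTG, read on both strands, was found in 17.2% of all 32851 promoters of this length. Counted by gene, with a match in any of its promoters, it was found for 6 of the 15 pDC markers with an entry. There were 19 markers in all. A match describes letters only.

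Between diets, most genes of the pDCs differed little, and the genes of sterol synthesis were lower in MASH pDCs. Of 10085 genes with at least 20 summed UMIs at 12 weeks, 422 (4.18%) reached a 2-fold higher and 160 (1.59%) a 2-fold lower level in MASH pDCs. Of 9994 genes at 24 weeks, 399 (3.99%) reached the higher and 242 (2.42%) the lower limit. Among the 9566 genes tested at both weeks, 193 (2.02%) were at least 1.5-fold higher in MASH at each week with both MASH libraries above both chow libraries, and 61 (0.638%) were lower by the same rule. The median log2 ratio of all genes was 0.01 at 12 weeks and 0.02 at 24 weeks.

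Cells make cholesterol from acetyl-CoA through the mevalonate pathway, whose enzymes are induced together by the transcription factor SREBP-2 when membrane cholesterol is low. All 12 sterol synthesis enzymes of the list were lower in both MASH libraries than in both chow libraries, an order seen in 11.1% of all genes. The counting interval of the ratio lay below 1 for 11 of the 12 at each week, against 9.6% of all genes at 12 weeks and 9.51% at 24 weeks, with Lss the exception at 12 weeks and Nsdhl at 24 weeks. Of the 12, 2 were at least 2-fold lower at 12 weeks and 2 at 24 weeks, against 1.59% and 2.42% of all genes. At both weeks 7 were at least 1.5-fold lower, against 0.638% of all genes. The median log2 ratio of the 12 was -0.80 at 12 weeks and -0.78 at 24 weeks.

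Early steps of the pathway showed the difference. Hmgcs1, which condenses acetyl groups into HMG-CoA (chr13:119690379-119708260, plus strand, GRCm38), had 54.7 CPM in MASH and 108 CPM in chow pDCs at 12 weeks, and 45.5 CPM in MASH and 95.4 CPM in chow pDCs at 24 weeks. Both MASH values lay below both chow values, with a 12-week MASH to chow ratio of 0.508 (0.413 to 0.624) and a 24-week ratio of 0.478 (0.381 to 0.598). Fdps, which makes farnesyl diphosphate for sterols and for protein prenylation (chr3:89093588-89101959, minus strand), had 158 CPM in MASH and 368 CPM in chow pDCs at 12 weeks, and 185 CPM in MASH and 273 CPM in chow pDCs at 24 weeks. Its ratios were 0.430 (0.383 to 0.482) and 0.679 (0.602 to 0.765), and the diets again did not overlap.

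The later enzymes stood the same way round. Fdft1 and Sqle, which make and oxidise squalene, had ratios of 0.459 and 0.698 and of 0.531 and 0.560 at 12 and 24 weeks. Idi1, the isopentenyl diphosphate isomerase, had 45.3 and 51.8 CPM in MASH pDCs, against 74.2 and 96.8 CPM in chow pDCs (12 and 24 weeks in each case), with ratios of 0.611 and 0.535. Msmo1 and Cyp51, which remove methyl groups from lanosterol-type sterols, had ratios of 0.541 and 0.562 and of 0.584 and 0.658. Sc5d and Nsdhl, further enzymes of sterol processing, had ratios of 0.635 and 0.714 and of 0.635 and 0.785. Lss, the lanosterol synthase and the enzyme with the fewest UMIs, had ratios of 0.872 (0.504 to 1.54) and 0.601 (0.373 to 0.961), and its 24-week ratio turned to 1.25 against chow hashtags 5 to 8 alone. Mvd, Hsd17b7 and Stard4, a mevalonate enzyme, a sterol reductase and a sterol carrier outside the enzyme list, were looked up after their values were seen, apart from Hsd17b7. Their ratios were 0.586 and 0.430, 0.298 and 0.434 and 0.598 and 0.571 at 12 and 24 weeks, and that of Stard4 was 0.925 at 24 weeks against chow hashtags 1 to 4 alone.

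**Figure D2:**
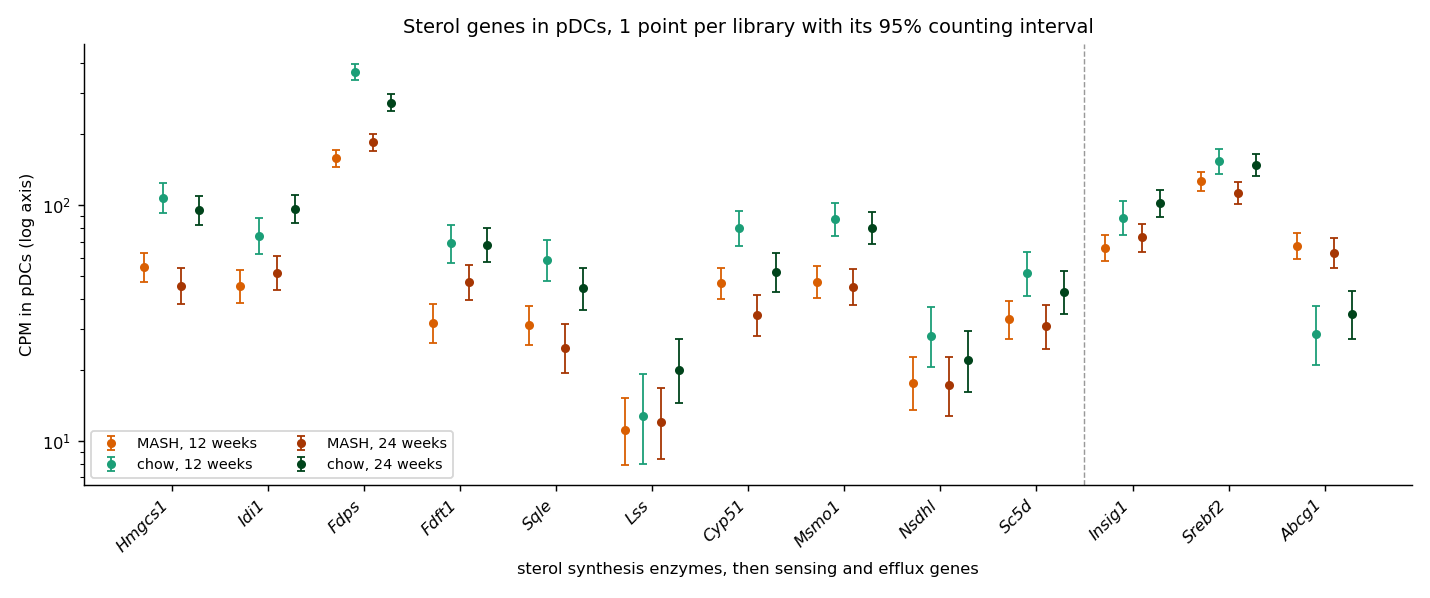
CPM in pDCs (log axis) of 10 of the 12 sterol synthesis enzymes and, right of the dashed line, of 3 genes of sterol sensing and efflux. Each point is 1 library with its 95% counting interval. For the 10 enzymes drawn both MASH points lie below both chow points, while Abcg1 lies the other way, at 67.2 and 62.8 CPM in MASH against 28.4 and 34.6 CPM in chow.

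Genes of sterol sensing were lower, and the efflux gene Abcg1 higher, in MASH pDCs. Insig1, which holds the SREBP complex in the endoplasmic reticulum, had ratios of 0.746 (0.605 to 0.921) and 0.718 (0.591 to 0.871), and Srebf2, which encodes SREBP-2, of 0.823 (0.705 to 0.961) and 0.761 (0.651 to 0.891). Abcg1, a transporter that exports cholesterol to lipoproteins, had 67.2 and 62.8 CPM in MASH pDCs, against 28.4 and 34.6 CPM in chow pDCs (12 and 24 weeks in each case). Both MASH libraries lay above both chow libraries, with ratios of 2.37 (1.73 to 3.29) and 1.82 (1.38 to 2.41). This order was not particular to pDCs, since Abcg1 was higher in MASH at both weeks in cDC1, cDC2 and B cells too. All other kept cells had 84.4 and 73.0 CPM in MASH, against 61.6 and 44.6 CPM in chow (12 and 24 weeks in each case). These levels lay above that of pDCs in every library. Abca1, the other cholesterol exporter, rested on 49 UMIs in MASH and 4 in chow pDCs at 12 weeks and 26 in MASH and 5 in chow pDCs at 24 weeks. Its level in pDCs was below 0.25 of that in other kept cells, and the part of free RNA from those cells was not tested. Scd2 and Fasn, enzymes of fatty acid synthesis, had ratios of 0.599 and 0.714 and of 0.731 and 0.635, and Plin2, a coat protein of lipid droplets, of 1.31 and 1.62. Of the 24 tested genes of the whole cholesterol and lipid list, both MASH libraries lay below both chow libraries for 17 and above them for 5, against 11.1% and 14.2% of all genes. At 12 weeks 3 reached 2-fold higher and 2 reached 2-fold lower, against 4.18% and 1.59% of all genes, and at 24 weeks 2 and 2, against 3.99% and 2.42%.

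The promoter of Hmgcs1 is shown because SREBP-2 acts through sterol response elements, here searched as TCACNCCAC on both strands. Its 250 bases before the start (RefSeq, GRCm38.p6, chr13:119690101-119690350, plus strand) hold 1 match, in capitals, which begins 137 bases before the start:

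Hmgcs1: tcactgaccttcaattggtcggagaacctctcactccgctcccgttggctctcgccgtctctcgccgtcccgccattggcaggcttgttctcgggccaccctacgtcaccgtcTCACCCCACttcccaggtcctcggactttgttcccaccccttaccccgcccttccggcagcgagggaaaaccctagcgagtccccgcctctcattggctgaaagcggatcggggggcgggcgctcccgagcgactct

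The letters were found in 1.05% of all 32851 promoters of this length, and in 1 of the 7 sterol enzymes with an entry. A promoter without them may still hold other forms of the element, which were not searched.

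Summed over the 12 enzymes, pDCs had 582 CPM in MASH and 1119 CPM in chow at 12 weeks, and 549 CPM in MASH and 921 CPM in chow at 24 weeks. The ratios were 0.520 (0.489 to 0.554) and 0.596 (0.558 to 0.637). The other populations had ratios below 1 as well, at 0.624 (0.542 to 0.719) and 0.771 (0.685 to 0.869) in cDC1, 0.867 (0.713 to 1.06) and 0.638 (0.555 to 0.734) in cDC2, 0.833 (0.777 to 0.894) and 0.739 (0.703 to 0.777) in B cells, and 0.697 (0.681 to 0.714) and 0.814 (0.799 to 0.829) in all other kept cells, at 12 and 24 weeks. At 12 weeks the pDC interval lay below those of cDC2, B cells and all other kept cells, and overlapped that of cDC1. At 24 weeks it lay below those of cDC1, B cells and all other kept cells, and overlapped that of cDC2. Whether the diet ratio differs between populations was not tested, since each rests on 1 library per diet. The level itself was also highest in pDCs, whose chow sums lay above those of every other population at both weeks.

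**Figure D3:**
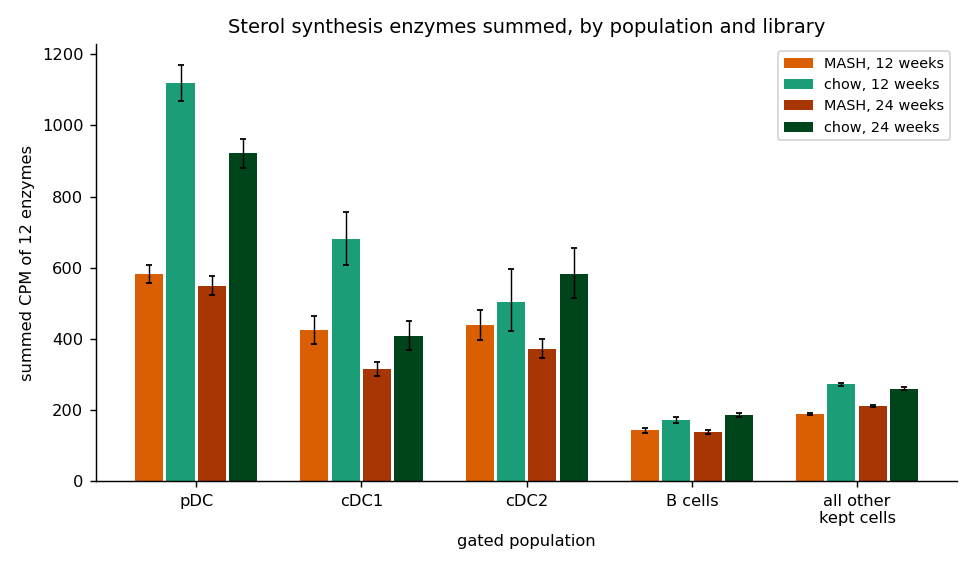
Summed CPM of the 12 sterol synthesis enzymes in pDCs and 4 other populations. Bars are single libraries in MASH and chow at 12 and 24 weeks, and error bars are 95% counting intervals. The MASH bar is lower than the chow bar of the same week in each population, from 582 against 1119 CPM in 12-week pDCs to 144 against 172 CPM in 12-week B cells, and the 12-week cDC2 intervals overlap.

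The sterol difference was spread over the cells and over the hashtags. In pDCs thinned to 1000 UMIs, 38.7% of MASH and 58.0% of chow pDCs held at least 1 UMI of the 12 enzymes at 12 weeks, and 33.4% of MASH and 49.9% of chow pDCs at 24 weeks. By hashtag, the summed level was 472 to 678 CPM over 3 MASH hashtags and 965 to 1298 CPM over 3 chow hashtags at 12 weeks, with no overlap. At 24 weeks it was 442 to 775 (median 509) CPM over 8 MASH hashtags and 771 to 1286 (median 912) CPM over 8 chow hashtags, and the highest MASH hashtag just reached the lowest chow one. Hashtags are parts of 1 library, and are not replicates. Over the alternative settings, the summed ratio stayed between 0.516 and 0.546 at 12 weeks and between 0.556 and 0.632 at 24 weeks.

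**Figure D4:**
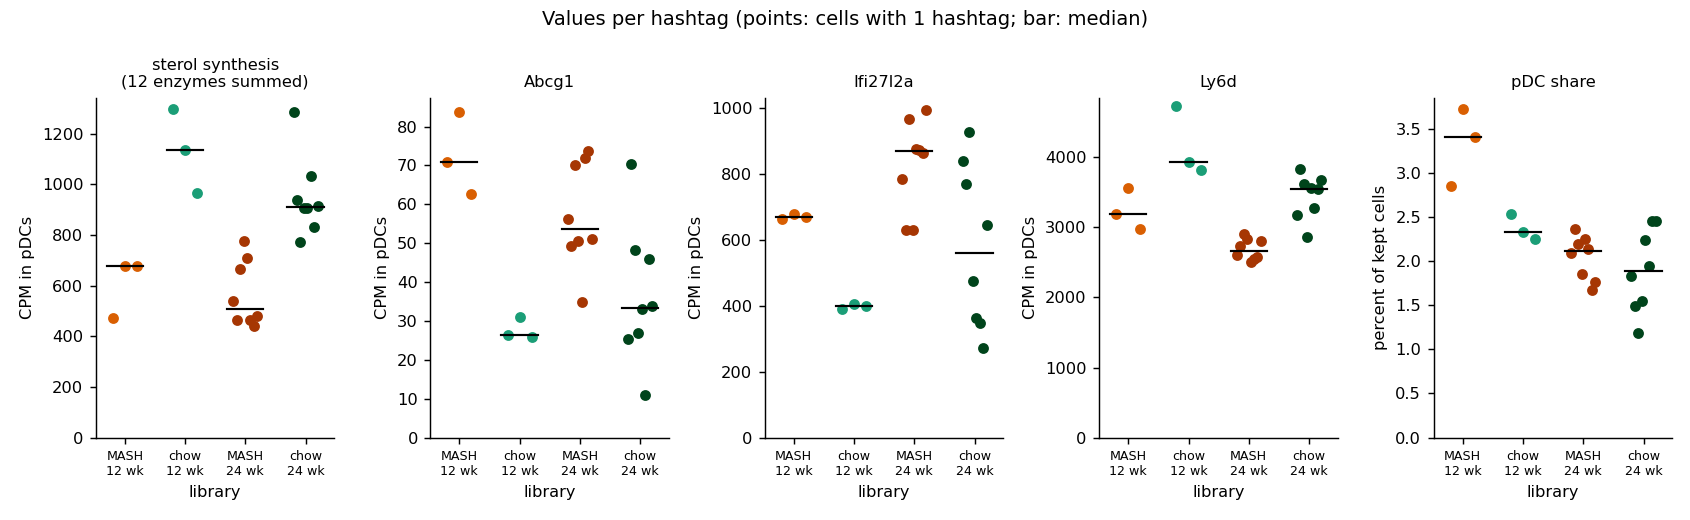
Values per hashtag in each library, from cells with exactly 1 hashtag: CPM in pDCs of the summed sterol enzymes, Abcg1, Ifi27l2a and Ly6d, and the pDC share in percent of kept cells. Points are hashtags and bars are medians. The summed sterol enzymes lie at 472 to 678 CPM in 12-week MASH and 965 to 1298 CPM in 12-week chow, while the 24-week chow hashtags spread widely for Ifi27l2a.

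Interferon genes gave few UMIs in the pDCs. Of the 20 type I and type III interferon genes in the list, 11 had no UMI in any pDC. Counted together they gave 0 UMIs in 12-week MASH pDCs, where a limit of 3 counts allows up to 0.537% of cells with such a UMI and does not limit the cells that express the genes, and 2 UMIs in 12-week chow pDCs. At 24 weeks they gave 26 UMIs in 10 MASH pDCs and 29 UMIs in 12 chow pDCs, which is 2.63% (1.27 to 4.79%) and 2.86% (1.48 to 4.94%) of the cells. The diets did not differ beyond these intervals. A single cell held 14 of the 24-week MASH UMIs and another 15 of the 24-week chow UMIs. Among all other kept cells, 0.920% in MASH and 0.670% in chow held such a UMI at 24 weeks.

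Genes of nucleic acid sensing kept close levels in the 2 diets. Of 25 tested members, none was 2-fold higher or lower at 12 weeks, against 4.18% and 1.59% of all genes. At 24 weeks 1, Ifih1, was 2-fold higher and none lower, against 3.99% and 2.42%. The median log2 ratio of the members was 0.07 at 12 weeks and 0.11 at 24 weeks. Tlr7 had 118 CPM in MASH and 97.3 CPM in chow pDCs at 12 weeks, and 117 CPM in MASH and 101 CPM in chow pDCs at 24 weeks, with ratios of 1.21 (1.01 to 1.46) and 1.16 (0.977 to 1.38). Tlr9 had ratios of 0.840 (0.613 to 1.16) and 1.04 (0.799 to 1.35). Irf7, the factor that drives interferon transcription, had 0.95 (0.824 to 1.10) and 1.24 (1.10 to 1.41), turning to 0.944 at 24 weeks against chow hashtags 1 to 4 alone. Unc93b1, the chaperone of endosomal Toll-like receptors, had 0.867 (0.811 to 0.927) and 1.18 (1.10 to 1.26).

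Interferon-stimulated genes, which cells turn on in response to interferon, leaned higher in MASH pDCs. Of 28 tested at each week, 3 and 4 reached 2-fold higher at 12 and 24 weeks, against 4.18% and 3.99% of all genes. None was 2-fold lower, where 1.59% and 2.42% of all genes were. Counting intervals lay above 1 for 14 and below 1 for 1 at each week, against 9.39% and 10.7% of all genes above 1 at 12 and 24 weeks. Both MASH libraries lay above both chow libraries for 15 of the 26 tested at both weeks, against 14.2% of all genes. Of these 26, 5 were at least 1.5-fold higher at both weeks, against 2.02% of all genes. Ifi27l2a, a small mitochondrial interferon-induced protein, had 669 CPM in MASH and 399.8 CPM in chow pDCs at 12 weeks, and 807 CPM in MASH and 545 CPM in chow pDCs at 24 weeks. Its ratios were 1.67 (1.54 to 1.82) and 1.48 (1.38 to 1.59). Isg15, a ubiquitin-like modifier, had 81.8 CPM in MASH and 53.9 CPM in chow pDCs at 12 weeks, and 88.0 CPM in MASH and 71.5 CPM in chow pDCs at 24 weeks. Both MASH libraries lay above both chow libraries, with ratios of 1.52 (1.2 to 1.94) and 1.23 (1.00 to 1.51), the second of which was 2.56 without cells marked by Scrublet. Lgals3bp, a secreted glycoprotein, had ratios of 1.51 (1.19 to 1.94) and 1.92 (1.51 to 2.46). Rsad2, the antiviral enzyme viperin, had ratios of 2.42 (1.35 to 4.66) and 3.90 (1.72 to 10.4), but 3 cells held 53.6% and 54.1% of its UMIs in MASH pDCs at 12 and 24 weeks. Its 12-week ratio was 7.43 without pDCs holding transcripts of other liver cells, and its 24-week ratio 1.84 against chow hashtags 1 to 4 and 5.93 against hashtags 5 to 8. Ifitm3, a membrane protein that blocks viral entry and that was looked up after its values were seen, had 317 and 403 CPM in MASH pDCs, against 160.5 and 179 CPM in chow pDCs (12 and 24 weeks in each case), with ratios of 1.98 (1.73 to 2.26) and 2.26 (2.01 to 2.54). In 24-week chow 3 cells held 35.1% of the Ifitm3 UMIs, and the 24-week ratio was 5.42 without cells marked by Scrublet and 6.15 against chow hashtags 5 to 8.

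The interferon-stimulated list as a sum had a MASH to chow ratio in pDCs of 1.05 at 12 weeks and 1.23 at 24 weeks, against 1.23 and 1.16 in cDC1, 1.67 and 1.33 in cDC2, and 0.959 and 1.18 in B cells, with 1.08 and 1.29 over all other kept cells. Within the 24-week chow library the hashtags were not alike. Ifi27l2a stood at 476 to 928 CPM over hashtags 1 to 4 and 271 to 646 CPM over hashtags 5 to 8 in chow pDCs, where the 8 MASH hashtags of that week ranged over 629 to 994 CPM. At 12 weeks the 3 MASH hashtags ranged over 665 to 678 CPM and the 3 chow hashtags over 389.7 to 406 CPM, with no overlap. The part of this split in the 24-week ratios was not tested beyond the values with each set of hashtags. The 24-week ratio of Isg15 was 0.867 against chow hashtags 1 to 4 alone and 1.67 against hashtags 5 to 8, and that of Ifi27l2a was 1.08 and 1.93.

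The promoter of Isg15 is shown because factors induced by interferon act through the interferon-stimulated response element, here searched on both strands as GAAA, any 2 bases and GAAA again. Its 250 bases before the start (RefSeq, GRCm38.p6, chr4:156200819-156201068, minus strand) hold 3 overlapping matches, in capitals, which begin between 78 and 66 bases before the start:

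Isg15: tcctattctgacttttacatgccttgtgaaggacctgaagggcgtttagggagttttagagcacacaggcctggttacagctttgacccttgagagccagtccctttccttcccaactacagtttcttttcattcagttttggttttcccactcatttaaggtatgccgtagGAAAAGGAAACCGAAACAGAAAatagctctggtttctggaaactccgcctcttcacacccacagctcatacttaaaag

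The letters were found in 2.98% of all 32851 promoters of this length. Counted by gene, with a match in any of its promoters, they were found for 14 of the 25 interferon-stimulated genes with an entry. The list held 34 genes.

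Genes of pDC identity stayed within 2-fold between diets. Of 29 tested members none passed 2-fold in either direction at either week, and the median log2 ratio was -0.02 at 12 weeks and -0.06 at 24 weeks. Over all genes 4.18% were 2-fold higher and 1.59% lower at 12 weeks, and 3.99% and 2.42% at 24 weeks. Both MASH libraries lay below both chow libraries for 5 of the 29 and above for 3, against 11.1% and 14.2% of all genes. Counting intervals lay above 1 for 7 and below 1 for 9 at 12 weeks, against 9.39% and 9.6% of all genes. At 24 weeks they lay above 1 for 7 and below 1 for 11, against 10.7% and 9.51%. The identity list summed had ratios of 0.960 (0.948 to 0.971) and 0.931 (0.920 to 0.942) at 12 and 24 weeks. Ly6d had 3084 CPM in MASH and 3981 CPM in chow pDCs at 12 weeks, and 2442 CPM in MASH and 3343 CPM in chow pDCs at 24 weeks, with ratios of 0.775 (0.751 to 0.798) and 0.730 (0.707 to 0.755). Klk1 had 1167 and 1151 CPM in MASH pDCs, against 1546 and 1518 CPM in chow pDCs (12 and 24 weeks in each case), with ratios of 0.755 (0.719 to 0.793) and 0.758 (0.722 to 0.796). Irf8 had 2638 and 2839.5 CPM in MASH pDCs, against 3144 and 3213 CPM in chow pDCs (12 and 24 weeks in each case), with ratios of 0.839 (0.811 to 0.868) and 0.884 (0.856 to 0.913). For these 3 genes both MASH libraries lay below both chow libraries. Spib, an Ets factor of the pDC program, had ratios of 0.887 and 0.853, and Runx2 of 0.989 and 0.959. Ly6c2, a surface antigen of a pDC subset, had ratios of 1.5 (1.44 to 1.56) and 0.952 (0.921 to 0.984). Dntt, the DNA polymerase of lymphoid progenitors, had ratios of 1.08 (0.922 to 1.27) and 1.51 (1.31 to 1.75).

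Genes of homing and adhesion did not move one way. Of 21 members tested at 12 weeks 1 was 2-fold higher and none 2-fold lower, against 4.18% and 1.59% of all genes. Of 19 at 24 weeks 3 were higher and 1 lower, against 3.99% and 2.42%. The median log2 ratio of the members was 0.04 and 0.21 at 12 and 24 weeks. The higher gene at 12 weeks was Ccr7, the lymph node homing receptor, at 3.13 (1.77 to 5.95), but 3 cells held 73.0% of its MASH UMIs. Its ratio was 1.44 with at least 3 UMIs of Siglech, 5.65 with at least 1, and turned to 0.859 with cells of exactly 1 hashtag. At 24 weeks the higher genes were Ccr1 and Cmklr1, chemoattractant receptors with 40 and 26 UMIs in MASH and 4 and 3 in chow pDCs, and Cd9, a tetraspanin, whose ratios were 1.03 and 3.19 at 12 and 24 weeks, or 0.610 and 1.67 with cells of exactly 1 hashtag. The lower gene was Cxcr4. Ccr2, the receptor for the chemokine CCL2, had 159 CPM in MASH and 112 CPM in chow pDCs at 12 weeks, and 204 CPM in MASH and 118 CPM in chow pDCs at 24 weeks, with ratios of 1.42 (1.21 to 1.68) and 1.73 (1.49 to 2.01). Both MASH libraries lay above both chow libraries, while by hashtag the diets overlapped, at 145 to 199 CPM in MASH and 61.4 to 177 CPM in chow at 12 weeks and 125 to 281 CPM in MASH and 82.1 to 168 CPM in chow at 24 weeks. All other kept cells had the same order for Ccr2, at 127 and 161 CPM in MASH, against 81.7 and 78.1 CPM in chow (12 and 24 weeks in each case). Ccr9, the gut-homing receptor used by the rule, had 626 and 604 CPM in MASH pDCs, against 618 and 764 CPM in chow pDCs (12 and 24 weeks in each case). Cxcr4, which retains cells in bone marrow, had ratios of 1.08 (0.889 to 1.33) and 0.418 (0.323 to 0.539), and Cxcr3, the receptor for interferon-induced chemokines, of 0.698 (0.549 to 0.891) and 1.42 (1.10 to 1.84), so the weeks did not match for either.

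Secreted factors gave no common direction. Ccl4, the macrophage inflammatory protein that pDCs make in quantity, had 1775 and 1549 CPM in MASH pDCs, against 1939 and 2013 CPM in chow pDCs (12 and 24 weeks in each case), with ratios of 0.915 (0.878 to 0.955) and 0.769 (0.738 to 0.802). Of 13 cytokine and effector genes tested at 12 weeks, 2 were 2-fold higher and 2 lower, against 4.18% and 1.59% of all genes. Of 12 at 24 weeks 3 were higher and none lower, against 3.99% and 2.42%. The median log2 ratio of the list was -0.13 and -0.05.

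Antigen presentation genes stood lower in MASH pDCs at 12 weeks and higher at 24 weeks. Of 23 tested members, counting intervals lay below 1 for 11 and above 1 for 2 at 12 weeks, against 9.6% and 9.39% of all genes. At 24 weeks they lay above 1 for 13 and below 1 for none, against 10.7% and 9.51%. No member passed 2-fold, where 4.18% of all genes were higher and 1.59% lower at 12 weeks, and 3.99% and 2.42% at 24 weeks. H2-Aa, the MHC class II alpha chain, had 2183 CPM in MASH and 2706 CPM in chow pDCs at 12 weeks, and 2697 CPM in MASH and 2391 CPM in chow pDCs at 24 weeks. Its ratios were 0.807 (0.778 to 0.837) and 1.13 (1.09 to 1.17). Cd74, the invariant chain, had 0.809 (0.793 to 0.826) and 1.19 (1.16 to 1.21), and Psmb8, an immunoproteasome subunit, 0.793 (0.739 to 0.851) and 1.24 (1.16 to 1.33). The summed list had ratios of 0.885 (0.875 to 0.896) and 1.13 (1.12 to 1.15) in pDCs and of 0.884 and 1.12 in B cells, which share the 2 libraries of each week. In the same libraries it had 0.898 and 1.03 in cDC1, 1.14 and 1.39 in cDC2, and 0.991 and 1.28 in all other kept cells. Whether the weeks differ was not tested.

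Heat-shock genes of the immediate early and stress list, set together after their values were seen, also ran opposite ways at the 2 weeks. Hspa1a, an inducible HSP70 chaperone, had 97.4 CPM in MASH and 25.5 CPM in chow pDCs at 12 weeks, and 396 CPM in MASH and 718 CPM in chow pDCs at 24 weeks. Its ratios were 3.82 (2.79 to 5.36) and 0.552 (0.511 to 0.597), and its level at 24 weeks was above that at 12 weeks in both diets. The 24-week MASH library was split, at 64.4 to 173 CPM over hashtags 1 to 4 and 455 to 702 CPM over hashtags 5 to 8, against 446 to 1038 CPM over the 8 chow hashtags, so only hashtags 1 to 4 of MASH lay below every chow hashtag. Hspa1b, its near-identical copy, had 4.15 and 0.438, and reads of the copies may be split between them. Hsph1, an HSP110 cochaperone, had 2.27 (1.92 to 2.68) and 0.387 (0.334 to 0.449), and Hsp90aa1, the inducible HSP90, 1.57 (1.48 to 1.66) and 0.545 (0.516 to 0.576). Against chow hashtags 1 to 4 alone, the 24-week ratios of Hsph1 and Hsp90aa1 were 0.935 and 0.848, and that of Hsph1 was 0.253 against hashtags 5 to 8. Egr1, an immediate early transcription factor, had 2.14 (1.64 to 2.84) and 1.42 (1.2 to 1.69), the first of which was 1.12 with cells of exactly 1 hashtag. Of the 23 genes of the immediate early and stress list, 5 were 2-fold higher and none lower at 12 weeks. At 24 weeks 1 was higher and 2 lower. Over all genes the shares were 4.18% higher and 1.59% lower at 12 weeks, and 3.99% and 2.42% at 24 weeks.

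**Figure D5:**
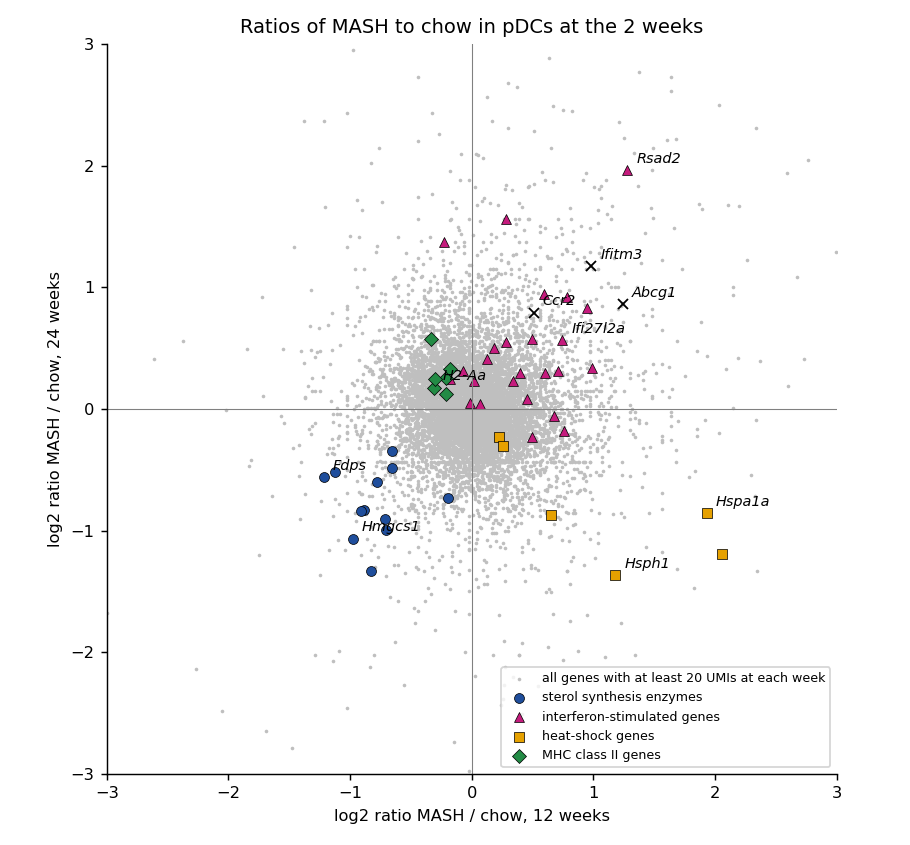
Log2 ratio of MASH to chow in pDCs at 12 weeks (x axis) and 24 weeks (y axis) for each gene with at least 20 UMIs at both weeks and a finite ratio, with 4 gene groups marked and crosses for single labelled genes. The axes run from -3 to 3 and leave out 56 of 9549 genes. All 12 sterol synthesis enzymes lie in the lower left, Hspa1a and Hsph1 in the lower right and MHC class II genes in the upper left.

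The secretory and unfolded protein genes, which serve the large endoplasmic reticulum of pDCs, showed no gene past 2-fold among 22 tested at either week. Their median log2 ratio was -0.04 at 12 weeks and 0.04 at 24 weeks. For comparison with each count in this paragraph, 4.18% of all genes were 2-fold higher and 1.59% lower at 12 weeks. At 24 weeks 3.99% were higher and 2.42% lower. Xbp1, the transcription factor of secretory cells, had ratios of 0.829 (0.748 to 0.920) and 0.820 (0.741 to 0.907), and Mzb1, a chaperone shared with B and plasma cells, of 0.819 (0.719 to 0.934) and 1.32 (1.16 to 1.51). Of 22 inhibitory and signalling receptors, none passed 2-fold at 12 weeks and 2 were higher at 24 weeks, with medians of -0.03 and 0.18. Of 13 survival and senescence genes, 1 was 2-fold lower at 12 weeks and none passed 2-fold at 24 weeks. Of the cell cycle list, 7 and 9 genes were tested at 12 and 24 weeks, none passed 2-fold at 12 weeks, and 1 was higher at 24 weeks. Mki67, the proliferation antigen, had 20 UMIs in MASH and 14 in chow pDCs at 12 weeks, and 33 in MASH and 21 in chow pDCs at 24 weeks. Of 14 genes of transitional dendritic cells, which lie between pDCs and cDC2, 2 were 2-fold higher and 1 lower at 12 weeks, and 4 were higher and none lower at 24 weeks. The list summed had ratios of 1.06 and 1.43 in pDCs, against 1.04 and 1.01 in cDC1 and 1.02 and 1.05 in cDC2. In B cells they were 1.29 and 1.76, and over all other kept cells 1.78 and 2.50. In pDCs, monocyte and macrophage markers moved with the list. They stood at 737 and 1089.7 CPM in MASH pDCs against 688 and 629 CPM in chow pDCs at 12 and 24 weeks. Their part was not tested.

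Plaur, the gene the series was made for (chr7:24462484-24475968, plus strand, GRCm38), was detected in pDCs and was lower in MASH. It had 189 CPM in MASH and 229 CPM in chow pDCs at 12 weeks, and 167 CPM in MASH and 255 CPM in chow pDCs at 24 weeks. Both MASH libraries lay below both chow libraries, with ratios of 0.828 (0.730 to 0.940) and 0.654 (0.578 to 0.741). By hashtag the diets overlapped at both weeks, with 188 to 218 (median 209.7) CPM over 3 MASH and 168 to 308 (median 198) CPM over 3 chow hashtags at 12 weeks, and 137 to 205 CPM over 8 MASH and 153 to 334 CPM over 8 chow hashtags at 24 weeks. Of the 6 tested genes of the plasminogen system list, none passed 2-fold at 12 weeks and 1 was higher at 24 weeks. Over all genes the shares were 4.18% higher and 1.59% lower at 12 weeks, and 3.99% and 2.42% at 24 weeks.

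The genes with the largest ratios at both weeks rested on few pDCs. Of genes with at least 50 UMIs over the 4 pDC sums, 182 were higher and 59 lower in MASH at both weeks by the 1.5-fold rule. The 10 highest were Saa3, Steap4, Tspan8, Spp1, Cldn3, Dsg2, Cxadr, Efemp1, Slc4a4 and C3, among them genes of bile duct epithelium and of the acute phase. In all 10, 3 cells held 51.4 to 100% of the UMIs of each MASH library, and 4 had a level under 0.25 of that in other kept cells. Of the 182 genes, 126 had at least 25% of the UMIs of a MASH library in 3 cells, 61 lay under that level, and 54 met neither limit. Genes with few UMIs can pass the 25% limit while spread over nearly as many cells, as Map3k19 did with 19 UMIs in 17 cells of 24-week MASH, so the 126 are not all genes of few cells. Of the 59 lower genes, 29 met neither limit, taken in the chow libraries, and 7 of those 29 were sterol synthesis enzymes. The 10 lowest were Serpina1e, Car3, Gnmt, Serpina1d, Thrsp, Ttc36, Nudt7, Gchfr, Hsd17b7 and Adgrl2, of which 7 lay under that level. In 8 of the 10, 3 cells held at least 25% of the UMIs of a chow library. Serpina1e, Serpina1d and Gnmt are genes of hepatocytes.

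Within a week the UMIs of the highest genes lay in few cells as well. At 12 weeks the 5 genes with the highest ratio were Elane, Mpo, Msmp, Saa3 and Chil4, and 3 cells held 91.9 to 100% of their UMIs in MASH pDCs. Elane and Mpo encode granule enzymes of immature neutrophils. At 24 weeks they were Hbb-bt, Saa3, Hbb-bs, Dcn and Hba-a2, with 96.7 to 99.6% of their UMIs in 3 MASH cells. The 5 lowest were Mgp, Car3, Gnmt, Serpinf1 and Cadm1 at 12 weeks, and Gm10260, Serpina1e, Ttc36, Fabp1 and Gnmt at 24 weeks. Not all of these rested on few cells. Cadm1 was found in 115 chow pDCs at 12 weeks and Gm10260 in 175 chow pDCs at 24 weeks, where 3 cells held 6.71% and 6.4% of their UMIs. All other kept cells had the same order for Gm10260 at 24 weeks, with 460 CPM in chow and 1.21 CPM in MASH. Hbb-bt, Hbb-bs and Hba-a2 are globin genes of red cells, Fabp1 a fatty acid carrier of hepatocytes, and Dcn and Mgp matrix genes. Without the pDCs that held at least 5 UMIs of erythroid, hepatocyte, cholangiocyte and stellate markers, the 2-fold higher genes numbered 253 at 12 weeks and 255 at 24 weeks, while the sterol ratio was 0.519 and 0.594.

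Among themselves the pDCs varied most in a few genes. Over cells thinned to 1000 UMIs, the 10 genes with the largest variance over mean, ranked by the smallest value over the 4 libraries, were Lyz2, Gm42418, Hba-a1, Ccl4, Ccl5, Malat1, Fabp1, Cd74, Lars2 and Gzma. Ccl4 was found in 46.1 to 53.3% of the thinned pDCs of a library, and its variance was 5.22 to 5.85 times its mean. Lyz2, the lysozyme of myeloid cells, was found in 1.83 to 10.1% of pDCs, and 3 cells held 47.6 to 93.0% of its UMIs in a library. Hba-a1, Fabp1 and Gzma are genes of red cells, hepatocytes and cytotoxic lymphocytes, and each was found in a minority of the cells.

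Markers used to divide pDCs into subsets were each present in part of the cells at this depth. Ly6c2, the antigen named above, was found in 80.0% of MASH and 73.6% of chow pDCs at 12 weeks, and 81.8% of MASH and 76.4% of chow pDCs at 24 weeks. Cd4, a coreceptor of helper T cells that some pDCs carry, was found in 14.1% of MASH and 12.3% of chow pDCs at 12 weeks, and 14.7% of MASH and 13.1% of chow pDCs at 24 weeks. Dntt, the polymerase named above, was found in 16.0% of MASH and 12.0% of chow pDCs at 12 weeks, and 18.9% of MASH and 11.9% of chow pDCs at 24 weeks. The order for Ly6c2 at 24 weeks went against its CPM, and for Dntt the intervals were 13.1 to 19.4% against 8.93 to 15.7% at 12 weeks, which overlapped, and 15.1 to 23.3% against 8.99 to 15.4% at 24 weeks, which did not. Cd209a, a lectin that also marks cDC2, was found in 21.1% of MASH and 18.5% of chow pDCs at 12 weeks, and 15% of MASH and 17.2% of chow pDCs at 24 weeks. Clec9a, a lectin that marks cDC1, was found in 10.6% of MASH and 7.57% of chow pDCs at 12 weeks, and 14.5% of MASH and 8.11% of chow pDCs at 24 weeks. The thinned cells numbered 555 in MASH and 383 in chow at 12 weeks and 380 in MASH and 419 in chow at 24 weeks, which left out 0 to 6 shallower cells per library. Without thinning, the shares of cells with Ly6c2, Cd4, Dntt, Cd209a and Clec9a ranged over 89.7 to 96.8%, 32.6 to 44.5%, 37.4 to 61.8%, 40.0 to 47.1% and 31.9 to 53.7% of pDCs. In B cells thinned to the same depth, with medians of 1795 to 2746 UMIs before thinning, they ranged over 2.49 to 3.58%, 0.199 to 0.498%, 0.0276 to 0.142%, 0.276 to 0.626% and 0.0923 to 0.199%.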

How the data were processed

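Gene expression of single liver cells was measured in 4 libraries, 1 for each diet and week, so no p-value, SD or count test was computed. The authors deposited raw UMI counts per gene and barcode, and per the file headers Cell Ranger 4 made the 12-week MASH matrix and Cell Ranger 5.0.1 the other 3. Both mm10 and GRCh38 stand in the submitters' processing notes, with no role for either. The method of cell calling was not given in the sources used here. Antibody hashtags were counted in the same files. The matrices held 737280 columns for 12-week MASH, of which 19091 had at least 500 UMIs, and 19442, 20874 and 27670 columns for 12-week chow, 24-week MASH and 24-week chow.

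Cells were kept with at least 500 UMIs, at least 300 genes and at most 15% mitochondrial UMIs. pDC counts were summed per library and divided by their total (CPM). Ratios carry exact conditional intervals, and genes needed at least 20 summed UMIs over the 2 libraries of a week. Scripts were tested on simulated data. For shares of cells, each cell was thinned to 1000 UMIs. Doublets were scored with Scrublet in scanpy 1.11.5 and by hashtag, and were removed only as an alternative. Other alternatives were a stricter cell filter, other Siglech limits, parts of the 24-week chow library, another scaling, other count minimums, means over cells and the removal of free-RNA genes. Calculations used Python 3.11.15, numpy 2.4.6, pandas 2.3.3, scipy 1.17.1, scikit-learn 1.9.0 and matplotlib 3.10.9. Gene positions came from GENCODE M21 on GRCm38, which held 32158 of the 32285 gene identifiers.

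The pDC rule, the gene lists and the tests were chosen with earlier results of these data known. Genes were named if they were in the rule or a list, among the 15 leading genes (at least 50 CPM), the 10 genes of largest ratio in each direction at both weeks (at least 50 UMIs), the 5 in each direction within a week (at least 100 UMIs) or the 10 most variable genes, and Plaur was named in any case. Mvd, Stard4 and Ifitm3 were named after their values were seen. A few genes that the rule names, members of lists among them, are not reported here, but they count in the sums and totals.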

Additional observations from a re-analysis of the deposited data

Results flagged for a closer look

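These MASH to chow ratios in pDCs lay on opposite sides of 1 at the 2 weeks, and the difference between weeks was not tested. The heat-shock genes Hspa1a, Hspa1b, Hsp90aa1 and Hsph1 were higher in MASH at 12 weeks and lower at 24 weeks. Hspa1a had a ratio of 3.82 at 12 weeks and 0.552 at 24 weeks, and Hspa1b of 4.15 at 12 weeks and 0.438 at 24 weeks. Hsp90aa1 had 1.57 at 12 weeks and 0.545 at 24 weeks, and Hsph1 2.27 at 12 weeks and 0.387 at 24 weeks. Il1b, an inflammatory cytokine, had 0.385 at 12 weeks and 5.17 at 24 weeks, from 18 UMIs in MASH and 23 in chow pDCs at 12 weeks and 35 in MASH and 5 in chow pDCs at 24 weeks. Of the MASH UMIs of Il1b, 3 cells held 88.9% at 12 weeks and 65.7% at 24 weeks. Over the alternatives its ratio ran from 0.156 to 0.595 at 12 weeks and from 4.01 to 11.2 at 24 weeks. The 24-week ratios of Hsph1 and Hsp90aa1 came to 0.935 and 0.848 against chow hashtags 1 to 4. Among summed lists, the antigen presentation genes had 0.885 at 12 weeks and 1.13 at 24 weeks, the homing and adhesion genes 0.961 at 12 weeks and 1.09 at 24 weeks, and the immediate early and stress genes 1.04 at 12 weeks and 0.832 at 24 weeks.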

How the results depend on the processing

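The lower summed transcript level of the sterol synthesis enzymes in MASH pDCs kept its direction under every alternative run. The summed ratio was 0.516 to 0.546 at 12 weeks. At 24 weeks it ran from 0.556 against chow hashtags 1 to 4 up to 0.632 with at least 1 UMI of Siglech. The pDC share ratio kept its direction at 12 weeks (1.36 to 1.57). At 24 weeks it turned to 0.832 against chow hashtags 5 to 8 and to 0.897 when MASH cells with 1 hashtag were used as well, and was 1.04 with every cell thinned to 1000 UMIs and at least 1 UMI of Siglech. The cause was not tested.

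Counts of genes depended on the filter by construction. With at least 50 summed UMIs, 154 genes were 2-fold higher and 46 lower at 12 weeks, 132 higher and 106 lower at 24 weeks, and 77 higher and 29 lower at both. With at least 1 summed UMI they numbered 3276, 1812, 3076, 1789, 1226 and 428. Without cells marked by Scrublet, 125 genes were higher at both weeks. With cells of exactly 1 hashtag, 223 were higher at 12 weeks, 230 at 24 weeks and 95 at both. Against chow hashtags 1 to 4 and 5 to 8, 679 and 684 were higher at 24 weeks. With means over cells, 100 were lower at both weeks. Among alternatives chosen after seeing the data, leaving out pDCs with transcripts of other liver cells gave 253 higher genes at 12 weeks and 255 at 24 weeks, and leaving out genes with at least 25% of their UMIs in 3 cells or open to free RNA gave 56 higher and 29 lower genes at both weeks.

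Single ratios whose interval left out 1 turned as follows. Without cells marked by Scrublet, Ly6c2 had 1.03 at 24 weeks. With cells of exactly 1 hashtag, Ccr7 had 0.859 at 12 weeks. Against chow hashtags 1 to 4, Irf7 had 0.944 at 24 weeks and Isg15 had 0.867 at 24 weeks. Against chow hashtags 5 to 8, Lss had 1.25 at 24 weeks and Ly6c2 had 1.01 at 24 weeks. With means over cells, Ly6c2 had 1.05 at 24 weeks. Ratios whose interval holds 1 also came to lie on its other side under at least 1 alternative for Irf7, Runx2, Cxcr4, Cd9 and Dntt at 12 weeks and Runx2 and Tlr9 at 24 weeks. The 115 gene and list ratios took 1029 values over the alternatives, of which 901 lay within the counting interval of the ratio as reported and 128 outside it. In 18 of the ratios some value moved by over 1.5 times, and those values or their range stand beside the ratio. Another scaling shifted all log2 ratios by 0.02 at 12 weeks and -0.01 at 24 weeks. No paired analysis was possible because each diet and week has 1 library and the labels give no replicate numbers. Depth limits what can be said of genes with few UMIs, interferon genes among them.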

Other observations

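Further genes of the lists with higher levels in both MASH libraries than in both chow libraries were chosen after their values were seen. Tmem176a and Tmem176b, membrane proteins of dendritic and myeloid cells in the transitional dendritic cell list, had 61.0 and 73.5 CPM in MASH pDCs, against 22.0 and 23.4 CPM in chow pDCs (12 and 24 weeks in each case) and 82.3 and 111 CPM in MASH pDCs, against 37.1 and 35.1 CPM in chow pDCs (12 and 24 weeks in each case). Their ratios were 2.77 (1.95 to 4.02) and 3.14 (2.30 to 4.37) for Tmem176a, and 2.22 (1.69 to 2.96) and 3.18 (2.47 to 4.14) for Tmem176b. These moved with the processing. At 12 and 24 weeks Tmem176a had 1.68 and 1.96, and Tmem176b 1.12 and 1.80, without pDCs holding transcripts of other liver cells. With cells of exactly 1 hashtag Tmem176b had 1.45 and 1.46, and Tmem176a 1.60 at 24 weeks. Their 24-week ratios were 1.65 and 1.88 without cells marked by Scrublet, and 2.08 and 2.04 with means over cells. In MASH pDCs 3 cells held 26.6% and 33.3% of the Tmem176a UMIs at 12 and 24 weeks, and monocyte and macrophage markers summed to 737 and 1089.7 CPM in MASH pDCs against 688 and 629 CPM in chow pDCs. Their part was not tested. Icosl, the costimulatory ligand of ICOS on T cells, had 19.9 and 24.5 CPM in MASH pDCs, against 11 and 14.0 CPM in chow pDCs (12 and 24 weeks in each case), with ratios of 1.81 (1.08 to 3.19) and 1.75 (1.13 to 2.77).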
